A study of Mus musculus with 2 samples.

Results

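The 10 genes described here encode proteins of the muscle sarcomere, the repeating unit of contraction, or of the discs that join heart muscle cells. They are Ttn, Actn2, Ldb3, Tcap, Csrp3, Nexn, Myom1, Myom2, Xirp2 and Mybpc3. They were taken by symbol from the 40276 features of the files, and each symbol matched 1 feature. The series profiled total RNA in place by random priming (spRandom-seq) on 2 FFPE (formalin-fixed, paraffin-embedded) mouse sections of 5 µm, 1 of a normal brain and 1 of a normal heart. Each section gave 1 library, read out on an array of barcoded spots. The labels give no strain, age, sex or genotype, and the treatment they list is the type of primer used for reverse transcription, so the groups differ only by tissue as far as the labels say. A spot is a small area that can hold parts of several cells. With 1 library per tissue there is no replicate check, no test was run, and all intervals are 95% intervals for counting error only.

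Titin, the protein of Ttn, is a giant spring that runs through a half-sarcomere from the Z-disc, where thin filaments of neighbouring sarcomeres are anchored, to the M-band, where thick filaments are cross-linked. Alpha-actinin 2 (Actn2) cross-links actin at the Z-disc, and Ldb3, Tcap, Csrp3 and Nexn encode further Z-disc proteins that bind alpha-actinin, titin or actin. The myomesins (Myom1, Myom2) cross-link the M-band. Myosin-binding protein C (Mybpc3) sits on the thick filament in the A-band, and Xirp2 encodes an actin-binding repeat protein of the intercalated discs that join heart muscle cells. In heart muscle, mutations in Ttn and Mybpc3 are well-known causes of cardiomyopathy.

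RefSeq's promoter table (build GRCm38.p6) held 9 windows for 7 of the 10 genes. Those of Ttn, Mybpc3 and Xirp2 are shown because they held a match to the binding site of MEF2, a family of muscle transcription factors, in the 250 bases before the annotated start. Each is printed 5′ to 3′ on the strand of the gene, with the MEF2 match in capitals. The Ttn window lies at chr2:76982548-76982797 on the minus strand, the Mybpc3 window at chr2:91117894-91118143 on the plus strand and the Xirp2 window at chr2:67445752-67446001 on the plus strand.
Ttn: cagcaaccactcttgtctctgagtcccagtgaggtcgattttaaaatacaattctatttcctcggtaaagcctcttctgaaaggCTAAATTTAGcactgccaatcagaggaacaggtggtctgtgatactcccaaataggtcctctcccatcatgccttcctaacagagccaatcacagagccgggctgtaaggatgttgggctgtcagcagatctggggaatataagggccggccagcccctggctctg
Mybpc3: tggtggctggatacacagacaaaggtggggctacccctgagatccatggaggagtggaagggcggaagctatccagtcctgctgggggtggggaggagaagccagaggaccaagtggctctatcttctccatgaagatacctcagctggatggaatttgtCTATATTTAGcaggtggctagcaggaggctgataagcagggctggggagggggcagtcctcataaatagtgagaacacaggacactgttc
Xirp2: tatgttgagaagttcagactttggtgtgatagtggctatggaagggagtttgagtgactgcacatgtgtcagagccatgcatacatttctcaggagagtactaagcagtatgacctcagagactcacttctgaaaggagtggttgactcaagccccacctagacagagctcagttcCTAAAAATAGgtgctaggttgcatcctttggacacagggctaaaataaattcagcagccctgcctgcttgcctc
The matches end 156, 80 and 64 bases before the start in Ttn, Mybpc3 and Xirp2. On either strand, 2.92% of the 32851 windows of this length in the table held a MEF2 site. The CArG box, the site of serum response factor, matched in the windows of Ldb3 and Myom1 and in 1.47% of all windows. The E-box CANNTG, found in 66.2% of all windows, matched in 6 of the 7 genes, and neither TATAAA (12.4% of all windows) nor CATTCC (12.6%) matched in any of them. A gene was counted if any of its windows matched, while the shares are per window, so these counts and shares differ in unit. The motifs were searched after the counts had been seen, a match is a description of the letters only, and no factor's binding was measured.

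Of 4992 barcodes, those with at least 500 counts and 200 features count as spots on tissue here: 4080 of the brain section (37143546 counts) and 3726 of the heart section (44613867 counts). Median depth was 5981 counts per spot in brain and 9050 in heart. Levels are CPM, counts scaled to a total of 1000000 counts over the kept spots. Ribosomal RNA took 34.9% of brain and 54.6% of heart counts, which lowers every other CPM in the heart. The tissue labels were checked against marker lists. Myh6, encoding the main myosin heavy chain of the adult mouse heart, had 4126 CPM in the heart section and 2.32 CPM in the other, and the 8 neuronal genes summed to 3413 CPM in brain and 148 in heart. All 4992 barcodes stand in both lists and 3342 were kept in both sections. At these the summed counts of the 10 genes in brain and heart had a Spearman rho of -0.03 and the total counts one of -0.08, given as a description.

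All 10 genes were higher in the heart section by the size rule, a level in heart of 20 CPM or more that is 4-fold or more above brain. Of the 6345 features at 20 CPM or more in either section, 5.41% met this rule. The ratios ran from 15.4-fold for Nexn to 589-fold for Ttn. Together they gave 17553 CPM in heart, 1.76% of all its counts (exact binomial interval 1.75 to 1.76), and 108 CPM in brain, a ratio of 163 (exact conditional interval 158 to 168). The median log2 ratio was 5.63 for the 10 genes and -0.71 for the 6345 features. In bulk or spot data, fewer cells of a type and less RNA per cell cannot be told apart.

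Ttn was the sixth most abundant feature of the heart library, below the 28S and 18S ribosomal RNAs, the ribosomal-RNA-overlapping Rn18s-rs5 and both mitochondrial ribosomal RNAs. It was counted 663152 times in heart and 937 times in brain, 14864 CPM (14829 to 14900) against 25.2 CPM (23.6 to 26.9), a ratio of 589 (553 to 629). At least 1 Ttn count lay in 3724 of the 3726 heart spots. Ttn alone made up most of the sum, and without it the other 9 genes gave 2689 CPM in heart, 82.5 in brain and a ratio of 32.6 (31.4 to 33.8).

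**Figure D1:**
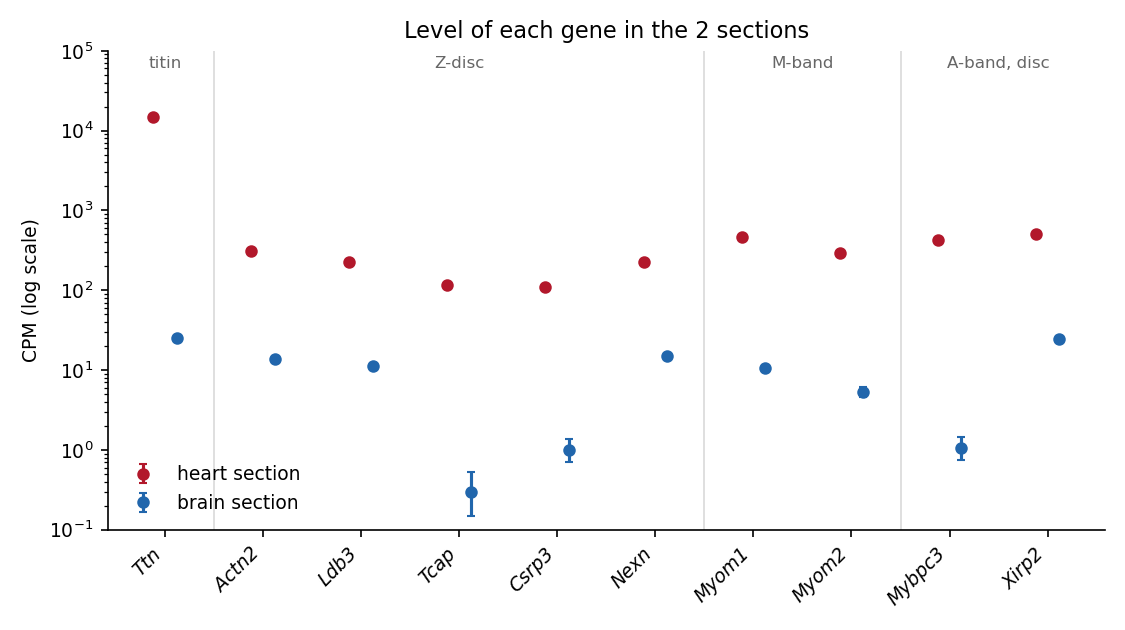
CPM of each gene (log axis) in the heart section (red) and the brain section (blue), in the order titin, Z-disc, M-band, and A-band or intercalated disc; bars are 95% Poisson intervals for counting error, 1 library per tissue. In each gene the heart value lies above the brain value, and the brain values fall into a group near 5 to 25 CPM and the 3 genes Tcap, Csrp3 and Mybpc3 at 0.296 to 1.05 CPM.

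Among the Z-disc genes the heart levels ran from 109 to 312 CPM and the brain levels from 0.296 to 14.8. Actn2 had 312 CPM in heart against 13.7 in brain, 22.7-fold (20.8 to 24.8). Ldb3, also called Cypher or ZASP, a PDZ-LIM protein that holds alpha-actinin in place, reached 228 and 11.1 CPM, 20.5-fold (18.6 to 22.6). Nexn, which encodes the actin-binding nexilin, reached 228 and 14.8 CPM, 15.4-fold (14.2 to 16.9). These 3 ratios lie within a narrow band, and those of Actn2 and Ldb3 have overlapping intervals.

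The smallest Z-disc genes had the lowest brain levels of the 5. Tcap, or telethonin, caps the ends of titin in the Z-disc, and it was counted 5127 times in heart (115 CPM) and 11 times in brain (0.296 CPM), 388-fold (217 to 778). Csrp3, the muscle LIM protein, was counted 4877 times in heart (109 CPM) and 37 times in brain (0.996 CPM), 110-fold (79.5 to 156). Neither interval overlaps those of the other Z-disc genes.

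The M-band genes had ratios between those of these groups in the counts as deposited. Myom1 had 470 CPM in heart against 10.6 in brain, 44.3-fold (40.1 to 49.1), and Myom2 294 and 5.28 CPM, 55.7-fold (48.4 to 64.5). Of the remaining pair, Mybpc3 was counted 18731 times in heart (420 CPM) and 39 times in brain (1.05 CPM), 400-fold (292 to 563), so its ratio overlaps that of Tcap. Xirp2 had the highest heart level after Ttn at 513 CPM but also 24.7 CPM in brain, 20.8-fold (19.4 to 22.2), close to Actn2 and Ldb3.

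The brain counts of several members were at or near the level of genes that neither tissue should use. Over 1490 olfactory and vomeronasal receptor genes the brain library held 2.49 counts per kb of gene span and the heart library 3.85. In brain, Myom2, Mybpc3 and Csrp3 had 1.04 (0.897 to 1.19), 0.853 (0.606 to 1.17) and 0.843 (0.594 to 1.16) times that density, with intervals that include 1. Whether the counts of these genes come from brain cells was not tested, and a density per span compares genes of unlike length only if introns were counted. Myom1 (1.27 times) and Ttn (1.35 times) lay slightly above it. Ldb3 (2.68 times), Actn2 (2.87 times), Xirp2 (4.57 times) and Nexn (7.51 times, 6.90 to 8.17) lay well above it. Tcap was at 3.87 times (1.93 to 6.92), but from 11 counts, 4 of them in the single spot described below. The Ttn density also includes the 87 Ttn counts of that spot. The densities and the ratios after subtraction were not computed without it. In heart the lowest of the 10 was Ldb3 at 42.5 times the receptor density. With this density subtracted in both sections the Ttn ratio was 2263 in place of 589, the Myom2 ratio 1503 in place of 55.7, the Myom1 ratio 201 in place of 44.3 and the summed ratio 307. The Myom2 value has no interval and its brain density cannot be told from the one subtracted, so it was not ranked against Tcap (523, from 11 brain counts). Actn2 (34.1) and Ldb3 (31.9) moved by over 1.5 times. Csrp3 and Mybpc3, below the density in brain, gave no ratio.

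Single spots weighed on 2 of the brain values. One brain spot of 12681 counts held 87 Ttn counts, where the next highest brain spot held 16, together with 4 of the 11 Tcap counts of the section and 22 of its 86 Myh6 counts. Of other heart muscle genes it held 3 Tnni3, 2 Tnnt2 and 1 Pln count and 0 of Actc1, Myl2 and Mybpc3. Without it, a step chosen after the spot was seen, Ttn fell to 22.9 CPM in brain and its ratio was 649 (607 to 695), and the Tcap ratio rose to 610. The source of these counts was not tested.

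Per length, the order of the heart levels changed. Lengths came from GENCODE release M21. Divided by the length of the merged exons, Ttn, with 116.8 kb the longest, had 127 CPM per kb, Tcap, with 0.948 kb the shortest, 121, Mybpc3 101 and Actn2 82.1. Nexn followed at 59.6, Myom1 at 44.95, Xirp2 at 42.8, Csrp3 at 40.9, Ldb3 at 37.4 and Myom2 at 33.2 CPM per kb. No neighbours in this order had overlapping intervals. Ttn and Tcap, at 14864 and 115 CPM, thus came to 127 (126.9 to 127.5) and 121 (117.9 to 124.6) CPM per kb.

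The choice of length changed the order, its ends included. Divided by the longest coding length, Tcap led at 229 CPM per kb, Csrp3 came next at 188 and Ttn after it at 141. Actn2 (116), Nexn (113), Mybpc3 (109) and Ldb3 (105) lay close together, the first pair with overlapping intervals, and Xirp2 was lowest at 45.2. Whether reads in introns were counted is not given in the sources used here, and they would add to either measure.

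Other genes of the same structures were mixed. Of 25 other Z-disc genes, 24 had counts, 12 passed the rule in heart and none in brain, and their median log2 ratio was 2.95. The highest were Fhl2, a LIM protein, at 633 CPM in heart (23.9-fold, 22.5 to 25.6), Fhod3, a formin, at 451 CPM but only 3.88-fold over brain, and Pdlim5 at 382 CPM (10.9-fold). Of 16 other M-band genes and titin partners, 15 had counts and 7 passed in heart, and the median log2 ratio was 1.83. Among them Cmya5 was at 439 CPM in heart (53.8-fold over brain) and Smyd1 at 100 CPM (10.9-fold). Xirp1 and Ankrd23 had no count in either library, which allows up to 0.0672 CPM in heart at a limit of 3 counts.

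The 10 genes set beside the members, most of them paralogs, had 0.650 to 37.7 CPM in heart. None passed the rule, which 5.41% of the 6345 features at 20 CPM or more in either section met. Only Neb, Actn1 and Actn4 reached 20 CPM in heart. The others could not pass whatever their ratio and are not among the 6345. Of the 5 skeletal muscle genes, Neb had 32.2 CPM in heart (1.71-fold over brain), Mybpc1 7.33 (0.760-fold), Mybpc2 6.07 (2.35-fold), Actn3 2.26 (1.24-fold) and Mybph 0.650 (0.635-fold). The broadly expressed alpha-actinins Actn1 and Actn4 had 32.7 and 37.7 CPM in heart and 46.0 and 41.3 in brain, set against 312 and 13.7 for Actn2. Csrp1 had 11.4 CPM in heart and 16.3 in brain, Csrp2 7.42 and 3.12, and Mybphl 7.24 and 0.888 (8.15-fold, 5.69 to 12.04). Myom3, another myomesin, had 7.40 CPM in heart and 4.74 in brain. Of the splicing factors known to act on titin, Rbm20 reached 377 CPM in heart (18.2-fold, 16.9 to 19.6) and Rbm24 77.5 CPM (7.97-fold), while Ptbp1 had 6.64 CPM and 1.42-fold.

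Within the heart section the genes were high or low in the same regions, with exceptions. Kept spots were grouped by expression into 6 regions, numbered 0 to 5, without using any listed gene. The summed level was highest in region 2 (1130 spots, led by Fuca2, Fbxo40 and Myl3) at 20278 CPM and lowest in region 4 (307 spots, led by the haemoglobin genes Hba-a1, Hbb-bs and Hbb-bt) at 5257 CPM, a ratio of 3.86 (3.79 to 3.93). Region 3 (689 spots, led by Lrtm1) had 19264 CPM, region 0 (782 spots, led by Cox6b1) 15356, region 1 (517 spots of a median of only 882 counts, led by Dnah7c) 15036 and region 5 (301 spots, led by Myl7, Sln and Myl4) 11179. Ribosomal RNA ranged from 47.0% in region 4 to 61.8% in region 0, and was 47.9% in region 5.

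**Figure D2:**
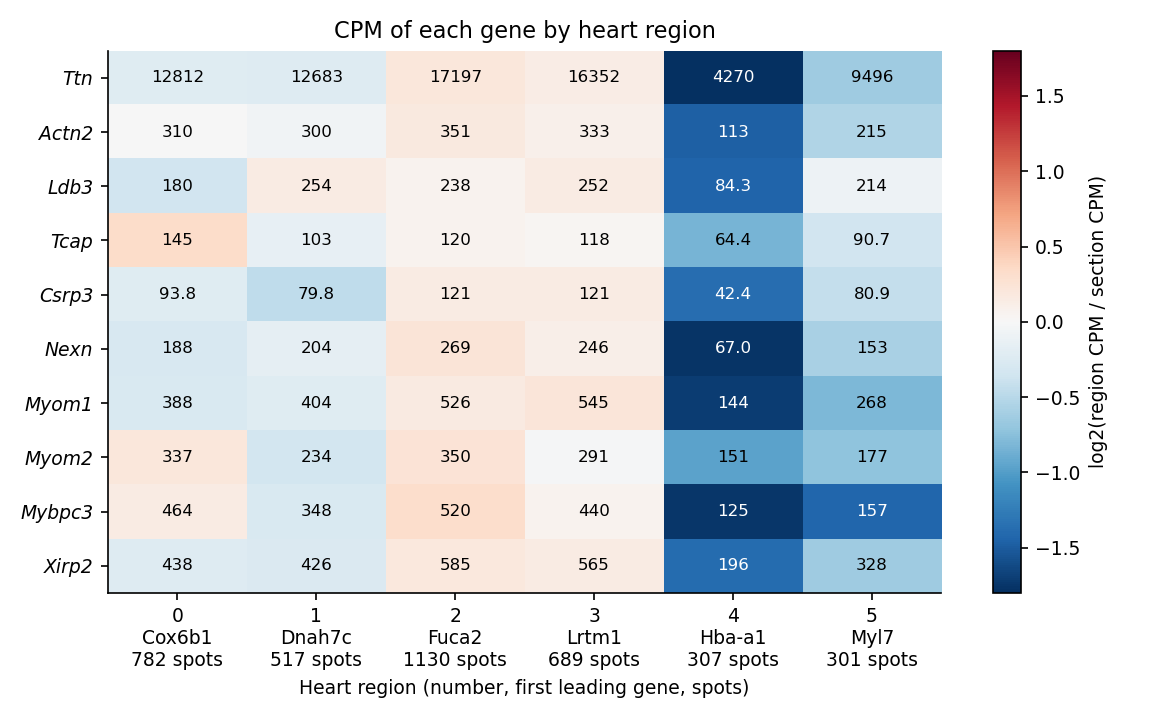
CPM of each gene (printed in the cells) in the 6 heart regions, coloured by log2 of the region's CPM over the section's CPM; columns give the region number, its first leading gene and its spots. Region 4 is low in all 10 genes, and in region 5 Mybpc3 is the lowest of the 10 relative to the section and Ldb3 the nearest to it.

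Region 5 had the highest sum of the 9 atrial genes, 1400 CPM against 74.98 in region 2, and the lowest sum of the 5 ventricular genes, 95.8 against 1194 CPM. Against region 2, where the ventricular list was highest, all 10 genes were lower, by different amounts. The direction turned for Ldb3 with a finer grouping of the spots (a ratio of 1.13 at a resolution of 1.0) and with genes scaled before grouping (1.04), and for Tcap with the finer grouping (1.03). Mybpc3 had 157 CPM in region 5 (146 to 168) and 520 in region 2 (509 to 532), 3.32-fold lower (3.09 to 3.58). Ttn had 9496 and 17197 CPM, 1.81-fold lower (1.79 to 1.83), and Ldb3 214 and 239 CPM, only 1.12-fold lower (1.04 to 1.20). By a rule of at least 2-fold at 20 CPM, chosen after these values were seen, Mybpc3 was the only member counted as lower, with 3.12% of 5577 features lower by that rule. Myom1 (1.96-fold lower, 1.85 to 2.08) and Myom2 (1.97-fold lower, 1.84 to 2.12) fell just short of it, with intervals that include 2. Ribosomal RNA took 58.6% of counts in region 2 and 47.9% in region 5. When levels were scaled to the counts left after removing ribosomal, mitochondrial and small RNA, 7 members were counted as lower (Ttn, Actn2, Nexn, Myom1, Myom2, Xirp2 and Mybpc3), with 5.51% of 9194 features, and Mybpc3 was still the lowest at a ratio of 0.232.

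Each gene was also set per Ttn count. In region 5 relative to region 2, Mybpc3 per Ttn count was 0.545 (0.506 to 0.586) and Ldb3 per Ttn count 1.62 (1.52 to 1.74). Tcap was at 1.37 (1.23 to 1.51), Csrp3 at 1.21 (1.08 to 1.35) and Actn2 at 1.11 (1.04 to 1.18). Xirp2 (1.02) and Nexn (1.03) had intervals that include 1, and Myom1 and Myom2 were at 0.922 and 0.918. Relative to Ttn, Ldb3, Tcap, Csrp3 and Actn2 thus lay above 1, both myomesins slightly below it and Mybpc3 far below it. Falling less than Ttn, which had a ratio of 0.552, was not particular to these Z-disc genes. The lists of other Z-disc genes (0.699), other M-band genes and titin partners (0.704) and calcium handling genes (0.637) also fell less. The thick and thin filament list (0.494) fell more. It shares Myl2 and Myl3 with the ventricular list by which region 2 was picked, so its ratio is not independent of that choice. The share of all features above 1 per Ttn count was not computed. Lists of fibroblast genes (1505 CPM in region 5, 296 in region 2) and of thick and thin filament genes (4828 and 9765 CPM) also differed between these regions, and their part in the result was not tested. When each gene was scaled to unit variance before the spots were grouped, the region highest in atrial genes held 840 spots and only 397 CPM of them, and Mybpc3 there had a ratio of 0.731 to the ventricular-high region and of 0.846 per Ttn count, while Myom1 per Ttn count turned to 1.07.

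**Figure D3:**
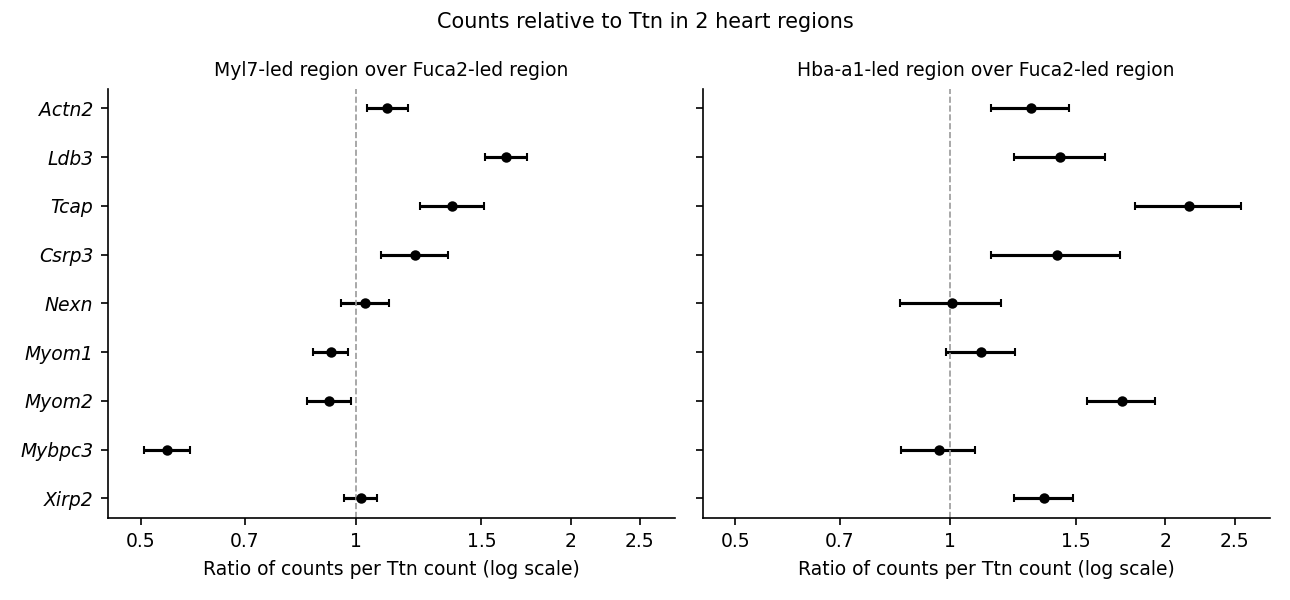
Ratio of counts per Ttn count (log axis) for the other 9 genes, in the Myl7-led region 5 (left) and the Hba-a1-led region 4 (right), each over the Fuca2-led region 2; bars are exact 95% intervals for counting error and the dashed line marks 1. Mybpc3 lies at 0.545 on the left and Tcap at 2.16 on the right.

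In region 4, where 5 erythrocyte genes summed to 7563 CPM against 64.7 in region 2, the genes were lower in a different order. By the 2-fold rule 9 of the 10 were lower than in region 2, with 8.92% of 6110 features lower by it. Mybpc3 had 125 CPM there (4.18-fold lower, 3.71 to 4.72), Ttn 4270 CPM (4.03-fold) and Nexn 67.0 CPM (4.01-fold). Myom2 had 151 CPM (2.32-fold lower, 2.08 to 2.59) and Tcap, the member outside the count, 64.4 CPM (1.87-fold, 1.58 to 2.22). Outside ribosomal, mitochondrial and small RNA the Tcap ratio was 0.405 (0.341 to 0.479), and all 10 were lower by the rule, with 12.7% of 10694 features. Per Ttn count Tcap was at 2.16 (1.81 to 2.55) and Myom2 at 1.74 (1.55 to 1.94), while Mybpc3 (0.964) and Nexn (1.004) had intervals that include 1. Tcap and Myom2 were also the highest of the 9 per Ttn count in region 0 over region 2, at 1.61 (1.46 to 1.77) and 1.29 (1.22 to 1.37). The erythrocyte list moved with the lower levels in region 4, and its part was not tested.

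Across single heart spots Ttn could be followed but most members were too sparse. Spots of at least 2800 counts were thinned at random to 2800, which kept 2939 spots and left out 787. A thinned spot held a median of 40 Ttn counts (5th percentile 5, 95th percentile 61, highest 89). The other means ran from 0.283 counts for Csrp3 to 1.28 for Xirp2, with at least 1 count in 23.5% of thinned spots for Csrp3 (52.4% unthinned) and in 67.6% for Xirp2 (80.7% unthinned). The median Spearman rho over the 45 pairs of members was 0.08, and the highest was 0.34, between Ttn and Myom1. Correlations this weak in sparse counts are no finding, and all share the depth and library of the spots.

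Among 599 other features of at least 100 CPM in heart, Myh6 was the most like the summed members across the thinned spots, at a rho of 0.54. Ryr2, the calcium release channel of the sarcoplasmic reticulum, followed at 0.47, Lpl, lipoprotein lipase, at 0.46, Atp2a2, the calcium pump, at 0.44, and its inhibitor Pln at 0.43. Actc1, cardiac actin, was at 0.41, Mb, myoglobin, at 0.38 and Tpm1, tropomyosin, at 0.37. The lowest was Hbb-bt, a beta-globin, at -0.40. Taken singly, Ttn, Actn2, Myom1, Xirp2 and Mybpc3 were each most like Myh6 (0.54, 0.17, 0.25, 0.21 and 0.27), Csrp3 and Nexn most like Atp2a2 (0.11 and 0.16), Ldb3 most like Ryr2 (0.15), Tcap most like Tnnt2 (0.10) and Myom2 most like the mitochondrial ribosomal RNA mt-Rnr2 (0.18). All are descriptions over 2939 spots of 1 library.

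Among the 9 members other than Ttn, Xirp2 was the most unevenly spread over heart spots. Its variance over mean in thinned spots was 1.37, against a median of 1.18 over 32 non-member features of similar mean, of which 4 were higher. For Myom1 and Mybpc3, which have similar means, the value was 1.17 and 1.21. A set of 14 spots held at least 20 Xirp2 counts and at least 3 times the number expected from the section's share, a rule chosen after the values were seen.

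In the 14 spots Xirp2 ran from 1673 to 4134 CPM, against 513 over the section, and the highest held 194 Xirp2 counts of 46923 where 24.1 were expected. Of these spots 8 lay in region 2, 4 in region 3 and 2 in region 5. Among features not used to choose them, those with the largest ratio to the other 3712 spots included Ankrd1, a titin-binding ankyrin repeat protein induced by strain, at 745 CPM against 67.3 (11.1-fold, 9.55 to 12.8), and Myh7, the beta myosin heavy chain of the foetal and stressed ventricle, at 679 against 82.3 CPM (8.25-fold, 7.08 to 9.57). Acta1, skeletal actin, was at 169 against 18.6 CPM (9.09-fold, 6.60 to 12.2), and the matrix genes Cilp (69.7 against 5.503 CPM) and Postn (99.1 against 13.0 CPM) were high too, and their part was not tested. Without the spot of 194 Xirp2 counts, which held 12 of the 27 Postn counts, Postn was at 66.5 CPM (5.03-fold). Myh6 was lower, at 3344 against 4131 CPM (0.810-fold, 0.758 to 0.864).

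**Figure D4:**
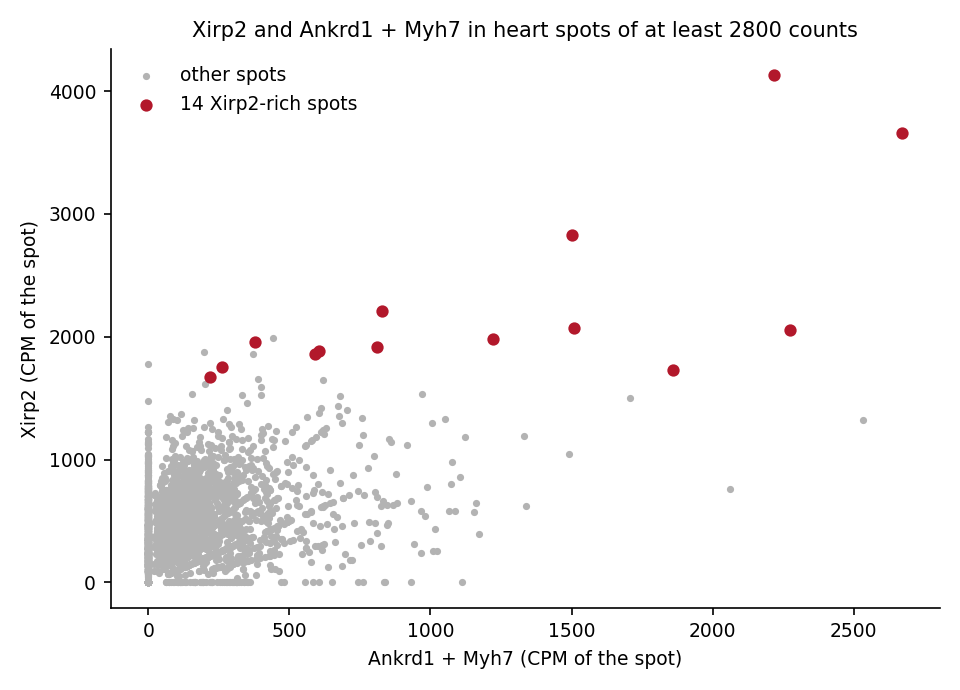
Xirp2 CPM against the summed CPM of Ankrd1 and Myh7 in each heart spot of at least 2800 counts (linear axes); red points are the 14 Xirp2-rich spots and grey points the other spots. The spot highest in Xirp2 (4134 CPM) lies far to the right, and several of the 14 lie among the other spots on the horizontal axis.

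For the other 9 members the ratios in those spots were smaller than those of Ankrd1, Myh7 and Acta1. The share of all features with such ratios was not computed. Csrp3, which has been described as a sensor of stretch, was the highest of the 9 at 1.79-fold (1.34 to 2.34). Nexn was at 1.44-fold (1.15 to 1.77), Myom1 at 1.37-fold (1.17 to 1.59), Ttn at 1.245-fold (1.21 to 1.28) and Mybpc3 at 1.22-fold (1.02 to 1.44). Actn2, Ldb3, Tcap and Myom2 had intervals that include 1. Leaving out the spot with 194 counts, the ratios were 9.24 for Ankrd1 and 7.52 for Myh7. The 6 of the 14 with at least 10 Ankrd1 counts held 161 of the 203 Ankrd1 and 164 of the 185 Myh7 counts. They also held 169929 of the 272424 counts of all features in the 14. They were picked by Ankrd1, so its share in them, and its lower level in the other 8, follow from the choice. The other 8 had Myh7 at 205 CPM (2.39-fold, 1.48 to 3.66) and Ankrd1 at 410 CPM (5.80-fold, 4.17 to 7.85). In these 8, Csrp3 was at 1.16-fold (0.618 to 1.99), from 13 of its 53 counts, and Nexn and Myom1 also had intervals that include 1. Ttn (1.26-fold), Myom2 (1.495-fold) and Mybpc3 (1.33-fold, 1.004 to 1.72) had intervals above 1 there. These ratios are against spots of all regions. Region 2 as a whole, which held 8 of the 14, had similar ratios to the rest of the section. They were 1.26 for Ttn, 1.30 for Nexn, 1.32 for Myom2, 1.42 for Mybpc3, 1.19 for Myom1 and 1.17 for Csrp3. The spots were not compared within regions, so these member ratios are not read as a trait of the Xirp2-rich spots.

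Ankrd1 was seen to be high in the Xirp2-rich spots before it was used to choose spots, so the levels that follow are a description. The 24 spots with at least 10 Ankrd1 counts include 6 of the 14, which held 480 of their 857 Xirp2 counts. In the other 18 Xirp2 was at 729 CPM against 510 elsewhere (1.43-fold, 1.29 to 1.58), Csrp3 at 1.17-fold (0.904 to 1.49), Ttn at 0.973-fold and Myom2 at 0.741-fold (0.610 to 0.892). Leaving out the Xirp2-rich spots lowers the Xirp2 value of the 18 by construction. Of the 24 spots 11 lay in region 5, where atrial genes are high, and 10 in region 3. A rule on raw counts favours deep spots, and these regions had the highest median depths, 15403 and 23403 counts. Nppa, an atrial peptide gene, was 10.1-fold higher in the 24 spots and only 1.74-fold in the 14. Whether the spots are neighbours on the section was not analysed here.

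In brain the highest levels of Actn2, Nexn and of Myom1 and Xirp2 lay in 3 different regions. Actn2, which outside muscle anchors receptors and channels at dendritic spines, was counted 82 times in region 8 (158 spots, with Penk and Drd2 among its leading genes). That gave 72.4 CPM (57.6 to 89.8) against 11.9 CPM in the rest, 6.09-fold (4.75 to 7.73), and no other region passed 23.9 CPM. This region had the highest striatal list, 3326 CPM against 252 to 683 elsewhere. At least 1 Actn2 count lay in 36.1% of its spots (28.6 to 44.1) and in 8.41% of the other spots, at median depths of 6554 and 5924 counts. By the rule of at least 2-fold at 20 CPM, 2 members were higher there, Actn2 and Nexn, with 4.4% of 5976 features higher by it.

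Nexn was counted 327 times in region 4 of the brain (665 spots, led by Shox2, Prkcd and Synpo2), 59.6% of its counts in the section. Its level there was 61.4 CPM (54.9 to 68.5) against 6.98 CPM in the rest, 8.81-fold (7.40 to 10.5). This region had the highest thalamic list, 5028 CPM against 496 to 1332 elsewhere. Nexn was counted in 34.3% of its spots (30.7 to 38.0) and in 5.505% of the others. It was the only member higher there by the 2-fold rule, with 4.95% of 5974 features higher by it, while Actn2 was at 7.33 CPM. The next highest level of Nexn was 30.0 CPM in region 8 (2.10-fold, 1.44 to 2.97). The smooth muscle list also summed highest in region 4, at 625 CPM, of which Synpo2, an actin-binding protein named among the region's leading genes, gave 524, while Acta2 was at 1.88 and Myh11 at 9.20 CPM, below the rest of the section.

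**Figure D5:**
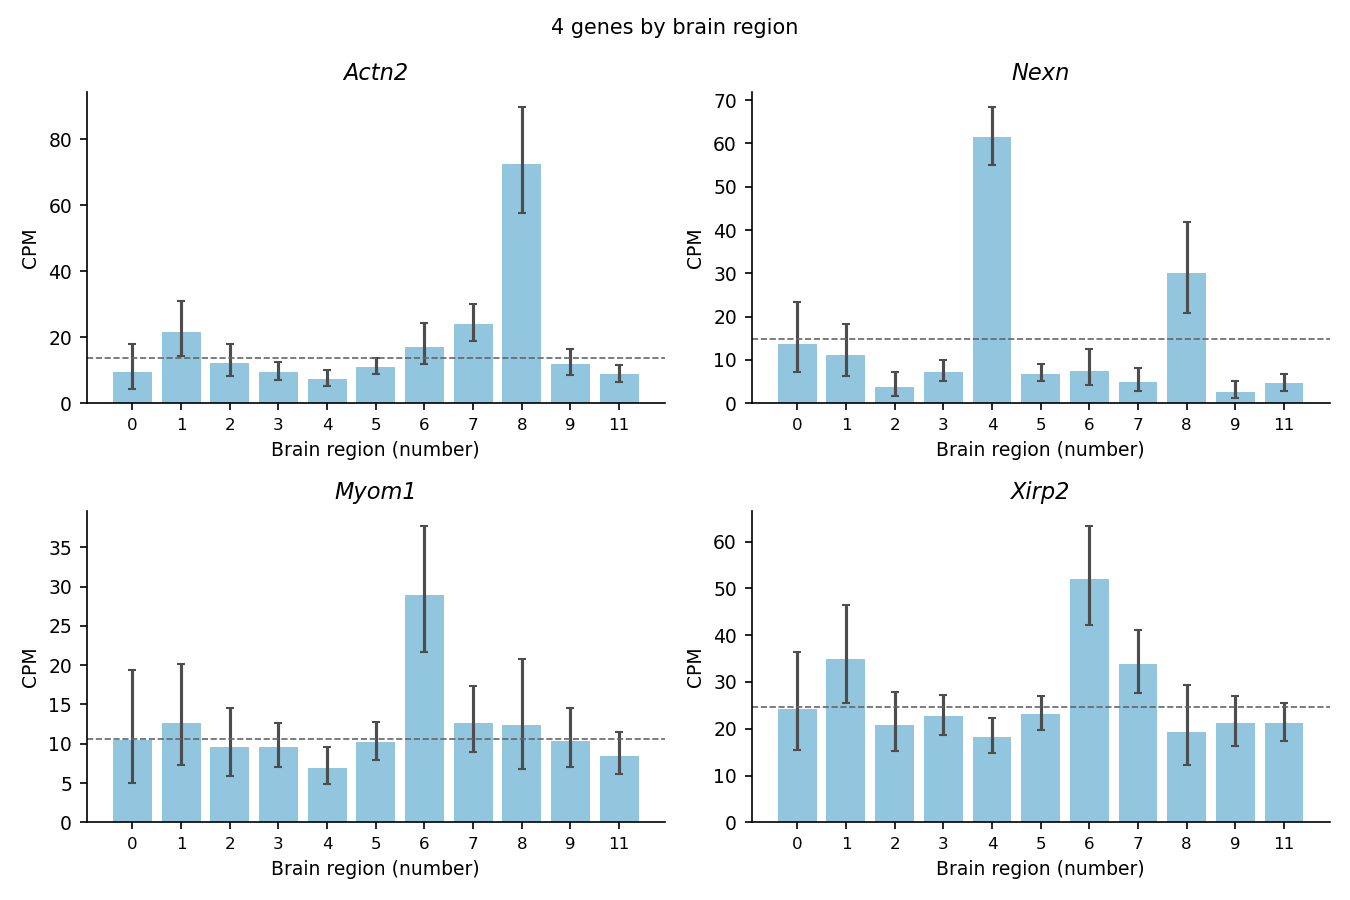
CPM of Actn2, Nexn, Myom1 and Xirp2 in the 11 brain regions of at least 50 spots (by number); bars are CPM with 95% Poisson intervals for counting error and the dashed line is the CPM of the whole section. Actn2 peaks in region 8, Nexn in region 4, and Myom1 and Xirp2 in region 6.

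Myom1 and Xirp2 were highest in region 6 of the brain (268 spots, led by Ttr, Sostdc1 and Ptgds). Myom1 was at 28.9 CPM (21.7 to 37.7) against 9.64 in the rest, 2.998-fold (2.21 to 4.005), and Xirp2 at 51.9 CPM (42.1 to 63.3) against 23.2, 2.24-fold (1.79 to 2.76). They were the 2 members higher there by the 2-fold rule, and 15% of 6755 features were higher by it. A count of 2 among the 10 members is near that share and is not read as a trait of these genes. Myom2 was 2.145-fold higher there (1.279 to 3.415), but at 10.7 CPM it lay below the 20 CPM of the rule. The meninges and choroid plexus lists were highest in the same region, at 1141 and 5524 CPM. Smooth muscle genes were high too, Myh11 at 108 CPM against 9.95 in the rest and Acta2 at 38.5 against 2.18, while the thick and thin filament list was at 94.2 CPM against 42.8 to 84.6 in the other regions. The part of smooth muscle or of any other cell type in these values was not tested. Tcap had 0 counts in the region and Csrp3 4.

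Of the remaining 6 members only Ttn reached 20 CPM in any brain region. Ttn reached 97.1 CPM in region 1 (325 spots, led by Mobp, Six3 and Cnp) and 32.9 CPM there without the single spot described above. Elsewhere it ran from 12.5 to 33.7 CPM. Ldb3 stayed between 7.71 and 16.6 CPM in all 12 regions and Myom2 between 2.65 and 11.6. Csrp3 reached at most 2.97 CPM and Mybpc3 at most 3.16. All 4 Tcap counts of region 1 came from the single spot, and in the other regions Tcap reached at most 0.883 CPM (1 count).

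In the annotation other genes overlap Ttn, Nexn, Myom1, Myom2 and Xirp2, and whether counting used strand is not given in the sources used here, so reads of a gene and its antisense partner cannot be told apart. Gm13938, antisense to Ttn, had 85.2 CPM in heart and 4.58 in brain, and Gm13601, antisense to Xirp2, 8.002 and 6.33 CPM. Myl12a, which overlaps Myom1 on the other strand, had 7 counts in heart and 3 in brain.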

How the data were processed

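The authors deposited counts per feature and spot barcode for 1 brain and 1 heart section. Per the submitters' processing notes, reads were processed with STARsolo and build mm39; versions, molecular tag merging, introns and strand are not given in the sources used here, so a count may not be a separate molecule. Kept spots (at least 500 counts and 200 features) were summed per section and scaled to CPM. Levels have exact Poisson, shares exact binomial and ratios exact conditional binomial intervals (scipy 1.17.1). Median depth was 5981 counts per spot in brain and 9050 in heart.

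Spots were grouped with scanpy 1.11.5: 2000 variable genes, 20 components, 15 neighbours, Leiden at a resolution of 0.6, leaving out listed genes and ribosomal, mitochondrial and small RNA. A first grouping had scaled each gene to unit variance; it is kept as an alternative. Leading genes have the largest fold over the rest among features of at least 50 CPM in the region. Spots were thinned with seed 1. Gene spans and exon lengths came from GENCODE M21 on GRCm38, older than the files' build, matched by gene ID. The ratio and thinning steps were tested on simulated data. The members and lists were chosen with earlier results of these data known. All 10 members are named; from each other sarcomere list the 3 highest in heart, 1 of which is not reported here, and every paralog. Rules for regions compared at 2-fold, Xirp2-rich spots and motifs were chosen after the values were seen.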

Additional observations from a re-analysis of the deposited data

Results flagged for a closer look

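Heart barcodes below the spot threshold, which the comparisons leave out, still carried the members. These 1266 barcodes held 154831 counts, and the 10 genes summed to 14797 CPM in them (14197 to 15415), with all 10 genes counted. The 912 brain barcodes below the threshold held 156957 counts and 242 CPM of the members (171 to 332). The origin of these counts was not tested.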

How the results depend on the processing

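All 10 genes stayed higher in heart at 2-fold, 8-fold and 50 CPM, with all barcodes, with deeper spots, with equal weight per spot, outside ribosomal, mitochondrial and small RNA, and without the brain spot richest in Ttn. The summed ratio was 240 outside ribosomal, mitochondrial and small RNA, 143 with equal weight per spot, 32.6 without Ttn and 307 with receptor density subtracted. That first scaling moved the median log2 ratio of all features from -0.71 to 0.09, the Ttn ratio to 866 and the Nexn ratio to 22.7. With equal weight per spot the Mybpc3 ratio was 197, against 400. The share of heart counts was 4.05% outside those RNAs and 0.269% without Ttn. The ratio of the highest to the lowest heart region was 3.68 at a resolution of 0.3, 3.77 at 1.0, 5.10 outside those RNAs, 3.12 without Ttn and 3.51 with genes scaled before grouping. The median rho of member pairs was 0.14 thinned to 5600 counts and 0.14 thinned to 1500 counts outside ribosomal RNA. In the atrial-high over the ventricular-high region, Ldb3 turned from 0.896 to 1.13 at a resolution of 1.0 and to 1.04 with scaled genes, Tcap from 0.754 to 1.03 at 1.0, and Myom1 per Ttn count from 0.922 to 1.07 with scaled genes; the causes were not tested. Mybpc3 stayed the lowest of the 10 there at 0.332, 0.391 and 0.232 at resolutions 0.3 and 1.0 and outside those RNAs, and 0.731 with scaled genes, where Myom2 was close at 0.741. The members counted as 2-fold lower there were 7 outside those RNAs, against 1. With scaled genes Ttn, Nexn, Myom1 and Xirp2 were at 0.863, 0.855, 0.920 and 0.853. Of 30 repeats of the brain region results all 30 stayed within their interval. No paired analysis was possible because each tissue has 1 library. Depth limits the brain values of Tcap, Csrp3 and Mybpc3 to 11, 37 and 39 counts.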
